A study of Mus musculus with 12 samples.

Results

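The Runx family and its partner were followed through 4 genes, Runx1, Runx2, Runx3 and Cbfb, found by symbol among the 24421 symbols of a mouse RNA-seq count table. All 4 passed the low-count filter. The cells were GFP+ LSK cells of the bone marrow, sorted for Kit and Sca-1 and for the absence of lineage markers, where blood stem cells and the earliest progenitors are found. They came from secondary recipient mice and had 4 genotypes, with 3 libraries each. The wildtype group (titled Empty) has intact miR-146a and wildtype Runx1, and the miR146aKO group (titled Mir-146 KO/Empty) lacks miR-146a. The Runx1mut group carries Runx1S291fsX300, a frameshift mutant, and the miR146aKO_Runx1mut group has both changes. The labels do not say how the mutant was brought into the cells, what Empty stands for, or whether each library stands for its own animal. The p-values therefore reflect how far these libraries spread, which may be technical.

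RUNX proteins bind DNA through their Runt domain, and CBFβ, the product of Cbfb, binds no DNA itself but stabilises RUNX on DNA. RUNX1 is required for the emergence of blood stem cells and later acts in megakaryocytes, lymphocytes and myeloid cells, RUNX2 is the master factor of bone formation, and RUNX3 acts in T cells, NK cells and dendritic cells. Truncating RUNX1 mutations occur in myelodysplastic syndrome and acute myeloid leukaemia. miR-146a is a microRNA that restrains innate immune signalling by pairing of its seed with the 3′ UTR of mRNAs such as Traf6 and Irak1.

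Each Runx gene can start from a distal and a proximal promoter, and the distal ones share an element with a pair of RUNX motifs. In the RefSeq promoter table (GRCm38.p6, 300 bases around each start site), the longest run of bases shared by a Runx1, a Runx2 and a Runx3 promoter was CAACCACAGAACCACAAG. Searched on both strands, it was found in 4 of 32851 promoters (0.0122%). Those of Runx1, Runx2 and Runx3 were sure to be among them, since the element was taken from these promoters. The other was that of Gm16225, whose start lies at the same Runx3 locus on the other strand. The 30-base windows are shown because this element is what the family shares at its start sites. Capitals mark ACCACA, the RUNX motif read on the strand of the gene.
Runx1 distal, chr16:92826025-92826054, minus strand: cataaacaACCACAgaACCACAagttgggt
Runx2, chr17:44814582-44814611, minus strand: acaaacaACCACAgaACCACAagtgcggtg
Runx3 distal, chr4:135120504-135120533, plus strand: tccctcaACCACAgaACCACAaggccaggc
The element begins at base 27 after the start site of Runx1, at base 22 after that of Runx2 and at base -136 of Runx3, ahead of its start site. The motif ACCACA, or TGTGGT on the other strand, which is part of the longer element, occurred in 16.8% of all promoters. It occurred 2 times in the distal Runx1 promoter, 3 times in the Runx2 promoter and 2 times in the distal Runx3 promoter. The proximal promoters of Runx1 and Runx3 and the promoter of Cbfb held 0 matches in these windows. A count per gene does not tell which promoter was used.

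The mature miR-146a-5p (chr11:43374435-43374456, minus strand, RefSeq) is shown with its seed, bases 2 to 8, in capitals, above the seed matches in the 3′ UTRs of the Runx genes. Matches were AGTTCTC or GTTCTCA, which overlap in the full match AGTTCTCA, searched on the sense strand of GENCODE M21 transcripts and given in capitals.
miR-146a-5p: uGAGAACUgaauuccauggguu
Runx1, chr16:92601841-92601870, minus strand: tcagaaaatgcAGTTCTCcagcctccagct
Runx2, chr17:44604911-44604940, minus strand: agatgcacacgGTTCTCAaaggagcacaaa
Runx3, chr4:135176557-135176586, plus strand: ttgcctactggGTTCTCAgggggcagacag
Each Runx gene had 1 such match, in 1 of 4 transcripts with a 3′ UTR for Runx1, 2 of 9 for Runx2 and 1 of 2 for Runx3. Cbfb had 0 matches in 4 transcripts. The full match AGTTCTCA was in none of the 4 genes, against 4 copies in Traf6 and 2 in Irak1. Of 21130 genes with a 3′ UTR, 21.1% had at least 1 match of either kind. A match describes letters and does not show that the microRNA acts there.

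Total counts per library ran from 3540043 to 7026393, with the miR146aKO group the shallowest at 3540043 to 4353971. The members had 166 to 4280 counts per library. The Mir146 row, the gene of miR-146a, had 0 counts in 11 libraries, including all 6 with intact miR-146a, so 0 counts check no label. It had 14 counts in A031, labelled miR146aKO_Runx1mut, where the label would lead to none. The source of these counts was not tested. The mean level of 4 Y-linked genes also differed, from 0.137 to 7.99 CPM in wildtype and from 24.8 to 60.4 in miR146aKO. Xist went the other way, from 704 to 4452 CPM in wildtype and from 16.5 to 464 in miR146aKO. The gate's own markers differed as well. Kit ran from 24.6 to 59.7 CPM in miR146aKO and from 218 to 436 in wildtype, and Ly6a, which encodes Sca-1, from 505 to 1019 and from 46.0 to 216. The mean log2 CPM of 10 stem cell and gate markers was 3.81 to 5.75 in miR146aKO and 6.70 to 7.53 in wildtype. The 10 monocyte and macrophage markers had a mean log2 CPM of 4.11 (A047), 8.90 (A150) and 8.01 (A151) in miR146aKO and of 1.90 to 4.27 in wildtype, with 9 of 10 higher at an unadjusted p under 0.05, a median log2 fold change of 4.21 and 0 called. The 8 erythroid markers were at 0.69 (A047), 5.06 (A150) and 3.91 (A151) against 0.44 to 1.36, with 4 of 8 higher at an unadjusted p under 0.05 and 0 called. Over all tested genes 15.9% had an edgeR unadjusted p under 0.05 in miR146aKO against wildtype, in either direction, and 0.18% were called. On both marker lists A150 and A151 lay above wildtype and A047 lay within its range. These values stand beside every difference between miR146aKO and wildtype, and their part in it was not tested. In sorted bulk samples, fewer cells of a type and less RNA per cell cannot be told apart.

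Runx1 (ENSMUSG00000022952.17, GRCm38 chromosome 16, 92601466 to 92826149, minus strand) was lowest in the libraries without miR-146a. In wildtype it was at 241 CPM in A015, 360 in A040 and 237 in A053. The miR146aKO libraries held 169 CPM (A047), 150 (A150) and 98.3 (A151). All 3 miR146aKO libraries thus lay below all 3 wildtype libraries.

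In Runx1mut, Runx1 was at 200 CPM in A021, 609 in A042 and 312 in A058. In miR146aKO_Runx1mut it was at 120 in A001, 259 in A031 and 191 in A051. The 6 libraries without miR-146a ran from 98.3 to 259 CPM with a median of 159, and the 6 with it from 200 to 609 with a median of 277. A031 was the 1 library without miR-146a that reached the range of the others.

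By group the order of Runx1 was Runx1mut (374 ± 211 CPM, SD, n = 3), wildtype (279 ± 69.7), miR146aKO_Runx1mut (190 ± 69.5) and miR146aKO (139 ± 36.3), and each pair of neighbours overlapped. The antisense gene Gm26626 shares 106 exon bases with Runx1 and is not separated without strand. A count per gene neither shows the frameshift nor separates an introduced copy from the cell's own gene. The raised mean in Runx1mut rests on A042: the log2 fold change against wildtype was 0.42 ± 0.44 (SE) and -0.12 without A042. A042 was also the Runx1mut library with the highest level of stem cell and gate markers (mean log2 CPM 6.99, against 3.38 in A021 and 3.23 in A058), and the part of those cells in its Runx1 level was not tested.

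**Figure D1:**
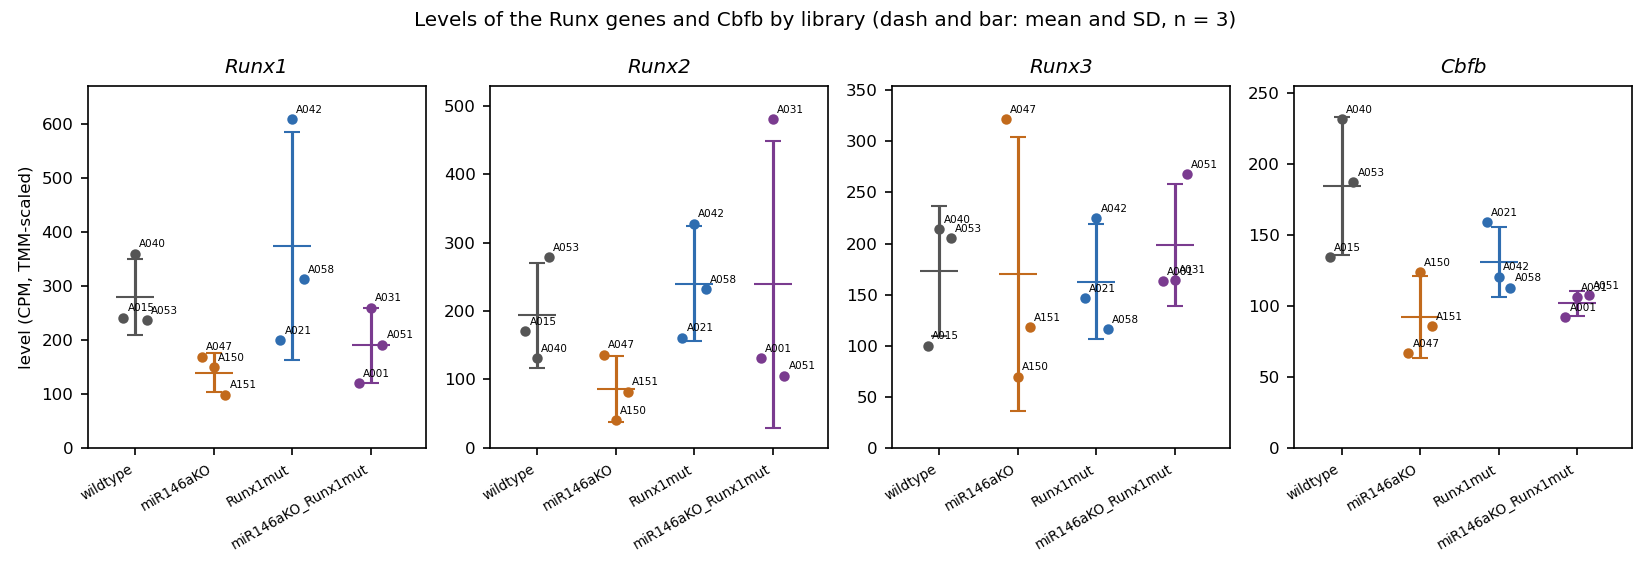
Level of each gene in CPM (TMM-scaled) for the 12 libraries, with the mean and SD of the 3 libraries of each genotype. Runx1 and Cbfb of the 3 miR146aKO libraries sit below all wildtype libraries, while Runx3 spans 69.7 to 322 CPM within miR146aKO.

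Cbfb (ENSMUSG00000031885.14, chromosome 8, 105170674 to 105217989, plus strand), the shared partner subunit, was highest in wildtype. It was at 135 CPM in A015, 232 in A040 and 188 in A053. The miR146aKO libraries held 66.7 CPM (A047), 124 (A150) and 85.9 (A151). The 3 miR146aKO_Runx1mut libraries held 92.0 (A001), 106 (A031) and 107 (A051). Both groups without miR-146a therefore lay wholly below wildtype.

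In Runx1mut, Cbfb was at 159 CPM in A021, 121 in A042 and 113 in A058, above every miR146aKO_Runx1mut library and overlapping wildtype. The order of group means was wildtype (185 ± 48.8), Runx1mut (131 ± 24.6), miR146aKO_Runx1mut (102 ± 8.55) and miR146aKO (92.2 ± 29.1). Of the neighbours in that order, Runx1mut and miR146aKO_Runx1mut did not overlap and the other 2 pairs did. Cbfb varied least of the 4 genes, by 3.48-fold from the lowest to the highest library, against 6.19-fold for Runx1, 11.98-fold for Runx2 and 4.62-fold for Runx3.

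Runx2 (ENSMUSG00000039153.16, chromosome 17, 44495987 to 44814797, minus strand) varied most. It was at 171 CPM in A015, 131 in A040 and 279 in A053 of wildtype, while the miR146aKO libraries held 136 (A047), 40.2 (A150) and 82.0 (A151). In Runx1mut the values were 161 (A021), 328 (A042) and 232 (A058). In miR146aKO_Runx1mut they were 131 (A001), 481 (A031) and 106 (A051). The high mean of miR146aKO_Runx1mut (239 ± 210 CPM, SD, n = 3) came from A031, and the other 2 libraries lay within or below the wildtype range. The order of the means was Runx1mut (240 ± 83.7), miR146aKO_Runx1mut, wildtype (194 ± 76.8) and miR146aKO (86.1 ± 48.2), and all neighbours overlapped.

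Markers of bone and stroma did not follow Runx2 from library to library. Of the 8 markers 4 passed the filter, and their mean log2 CPM was 5.28 in A031, 4.57 in A150 and 5.24 in A151, against -1.27 to 0.45 in the other 9 libraries. A150 and A151 had the lowest Runx2 of all 12 libraries and A031 the highest. Cxcl12, a chemokine of marrow stroma, was at 468 CPM in A031, 158.5 in A150 and 346 in A151, and at most 0.711 CPM in the other 9 libraries. The part of such cells in the Runx2 level was not tested. Sp7, the bone factor that acts with RUNX2, had 0 counts in all 12 libraries, and 4 of the 9 skeletal RUNX2 targets passed the filter, all at low levels. Runx2 can be overlapped by the antisense gene Runx2os1, which shares 519 exon bases and is not counted separately here. Without strand, reads of both fall together.

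Runx3 (ENSMUSG00000070691.10, chromosome 4, 135120652 to 135177990, plus strand) had similar means in all genotypes and differed between libraries of 1 genotype. It was at 100 CPM in A015, 214 in A040 and 206 in A053 of wildtype. The miR146aKO libraries held 322 (A047), 69.7 (A150) and 118 (A151), which include the highest and the lowest value of all 12 libraries. In Runx1mut it was at 146 (A021), 225 (A042) and 116 (A058), and in miR146aKO_Runx1mut at 163 (A001), 165 (A031) and 268 (A051). Group means ran from 163 ± 56.4 in Runx1mut to 199 ± 59.9 CPM in miR146aKO_Runx1mut (SD, n = 3), with wildtype at 173 ± 63.4 and miR146aKO at 170 ± 134, and all neighbours overlapped.

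A047, the library with the highest Runx3, was also the one with T cell transcripts. The 9 tested T and NK markers had a mean log2 CPM of 6.16 in A047 and of 0.33 to 2.59 in the other 11 libraries. Of these 9 markers, 1 had no count in A047 and 1 to 4 had none in the others. Cd3e, part of the CD3 signalling complex of T cells, reached 643.5 CPM in A047 and at most 8.71 CPM elsewhere. A051, second for Runx3, was at 0.95 for these markers and held 0.485 CPM of Cd3e. Without A047 the Runx3 log2 fold change of miR146aKO against wildtype went from -0.03 ± 0.52 (SE) to -0.88. The 6 tested dendritic markers were also highest in A047, at 6.33 against 1.80 to 5.30 in the other 11 libraries. The part of T cells or dendritic cells in the Runx3 level of A047 was not tested.

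**Figure D2:**
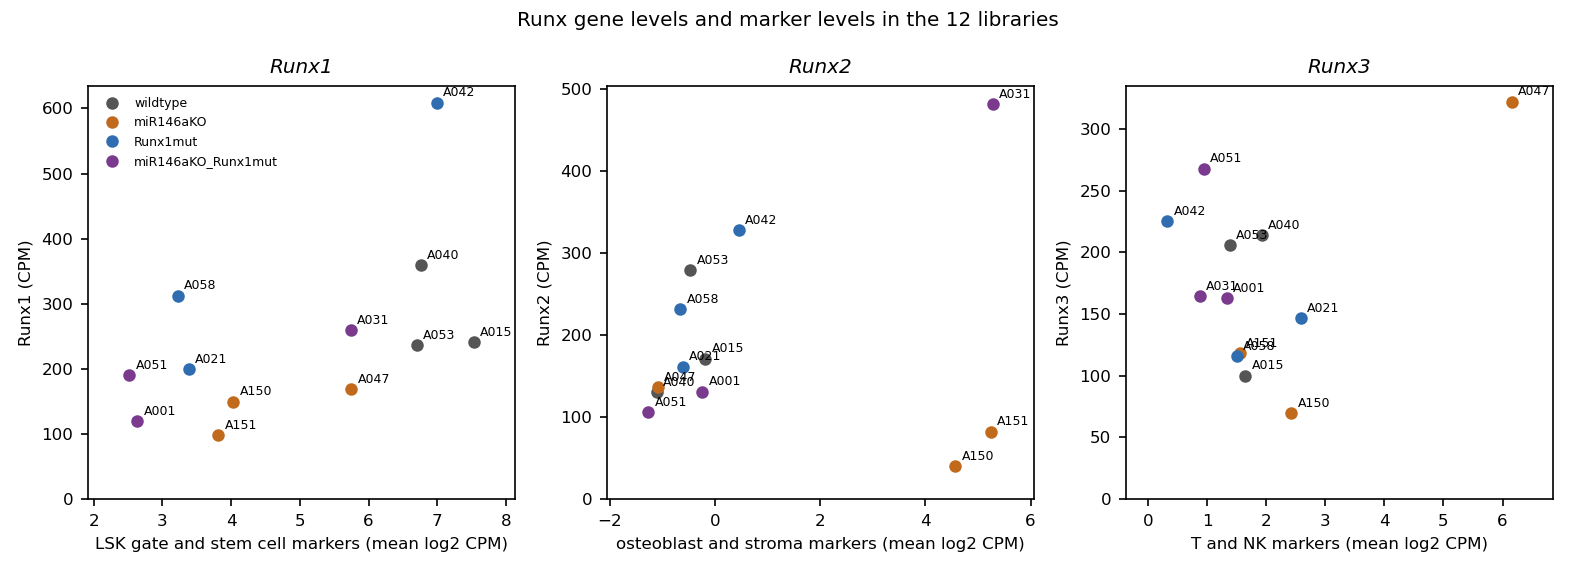
CPM (y axes) of Runx1 against 10 stem cell and gate markers, of Runx2 against 4 bone and stroma markers and of Runx3 against 9 T and NK markers (mean log2 CPM, x axes), 1 point per library, coloured by genotype. A047 stands alone with the highest T and NK level (6.16) and the highest Runx3 (322 CPM), and A031, A150 and A151 share high stroma levels with opposite Runx2 levels.

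Levels of different genes were set side by side per kilobase of exon (RPKM, from CPM and the union of exons). In wildtype Cbfb was at 53.1 ± 14.0 RPKM (SD, n = 3), Runx3 at 34.6 ± 12.7, Runx1 at 23.2 ± 5.81 and Runx2 at 21.9 ± 8.69. By this scale Cbfb was above 94.7% and Runx1 above 84.8% of 12271 tested genes with a length. The order of the Runx genes depended on the length used, since the exon union of Runx1 (12025 bases) is longer than its longest transcript (5861). With the longest transcript Runx1 was at 47.6 and Runx3 at 44.6 RPKM, and Cbfb was the highest of the 4 with either length and with the longest coding sequence.

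Of the summed per-length Runx level, Runx1 made up 33.7%, 34.2% and 21.3% in wildtype (A015, A040 and A053) and 14.9%, 40.3% and 19.9% in miR146aKO (A047, A150 and A151). It made up 25.9%, 38.1% and 34.5% in Runx1mut (A021, A042 and A058) and 17.4%, 19.8% and 19.5% in miR146aKO_Runx1mut (A001, A031 and A051). In the double genotype all 3 libraries lay below all wildtype and all Runx1mut libraries, with a mean of 18.9 ± 1.31% (SD, n = 3) against 29.7 ± 7.31% and 32.8 ± 6.27%. These shares are a description without a test. The rest was split differently in each library of the double genotype: Runx2 made up 50.0% in A031 and 14.7% in A051, and Runx3 30.2% and 65.8%.

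**Figure D3:**
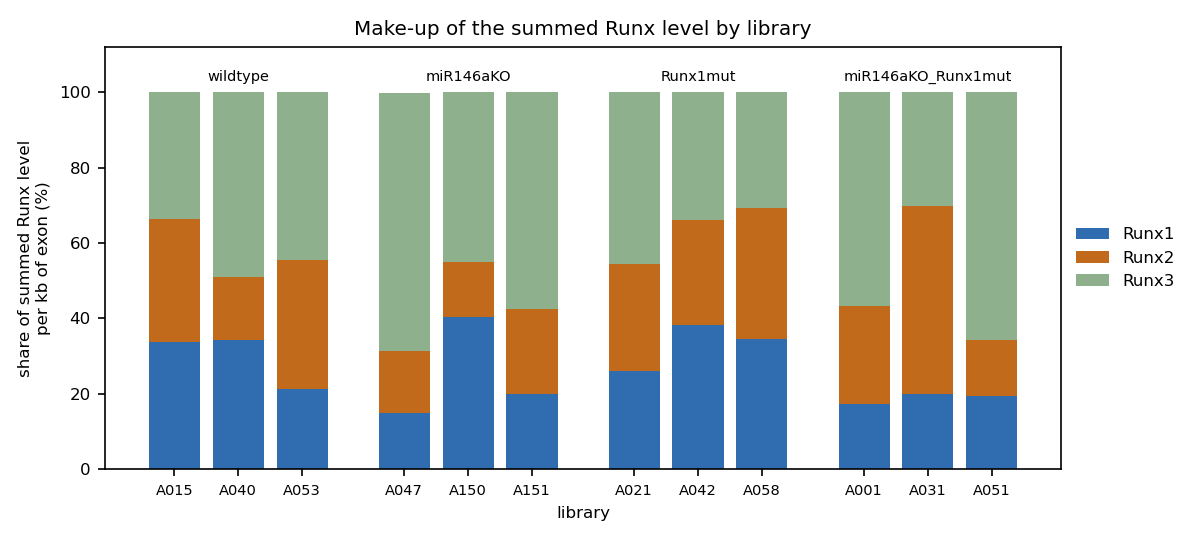
Share of Runx1, Runx2 and Runx3 in the summed Runx level per kilobase of exon (%), 1 bar per library, grouped by genotype. Runx1 holds 17.4% to 19.8% in the 3 miR146aKO_Runx1mut libraries and 21.3% to 38.1% in the 6 wildtype and Runx1mut libraries.

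The genotypes were compared with edgeR's quasi-likelihood test, with p-values adjusted over all 12744 tested genes, and none of the 4 genes passed an adjusted p of 0.05 in any of 8 contrasts. Of the 32 tests of a member, 7 had an unadjusted p under 0.05, and the smallest adjusted p was 0.194. Over all genes, the share with an unadjusted p under 0.05 ran from 4.63% to 15.9% by contrast. DESeq2 and limma-voom called none of the 4 either. Intervals given here are 95% and unadjusted.

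Loss of miR-146a alone was the comparison in which Runx1 and Cbfb were furthest down. Runx1 had a log2 fold change of -1.01 ± 0.44 (SE, interval -1.96 to -0.06, edgeR adjusted p = 0.288) and Cbfb of -1.002 ± 0.36 (-1.78 to -0.22, adjusted p = 0.199). These are 0.498-fold and 0.499-fold of the wildtype level. Runx2 stood at -1.17 ± 0.60 (-2.45 to 0.11, adjusted p = 0.361) and Runx3 at -0.03 ± 0.52 (-1.15 to 1.09). In this contrast 0.18% of all genes were called and 15.9% had an unadjusted p under 0.05, against 2 of the 4 members. Libraries lay wholly below wildtype for 2 members, Runx1 and Cbfb, and for 10.3% of all genes.

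Averaged over both Runx1 backgrounds, loss of miR-146a gave a Runx1 log2 fold change of -0.99 ± 0.31 (SE, interval -1.66 to -0.32, 6 libraries against 6, edgeR adjusted p = 0.194). Cbfb was at -0.68 ± 0.26 (-1.23 to -0.13, adjusted p = 0.289), Runx2 at -0.59 ± 0.42 and Runx3 at 0.13 ± 0.37. Without A031, the library with Mir146 counts, the values were -1.14 for Runx1 (edgeR adjusted p = 0.15), -0.70 for Cbfb, -1.10 for Runx2 (0.209) and 0.19 for Runx3. In this contrast 0.4% of all genes were called, and 11.8% had an unadjusted p under 0.05, against Runx1 and Cbfb of the 4 members. The Runx1 value was about as large within each background, at -1.01 with wildtype Runx1 and -0.97 ± 0.44 with mutant Runx1 (adjusted p = 0.999). In the second, 0% of all genes were called and 4.63% had an unadjusted p under 0.05, against Runx1 alone of the 4 members, and the value was -0.43 without A042 and -1.27 without A031. Runx2 in that contrast went from -0.01 ± 0.59 to -1.02 without A031. Cbfb was the 1 member whose libraries there did not overlap, at -0.36 ± 0.36, as in 5.42% of all genes. The interaction of both changes was 0.03 ± 0.62 for Runx1 (interval -1.29 to 1.36), so a difference between the backgrounds within that interval was not detectable here.

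With the Runx1 mutation alone none of the 4 genes passed the test, and each overlapped its wildtype range. The log2 fold changes were 0.42 ± 0.44 for Runx1 (SE, interval -0.52 to 1.36), 0.31 ± 0.59 for Runx2 (-0.95 to 1.57), -0.09 ± 0.52 for Runx3 (-1.21 to 1.03) and -0.50 ± 0.36 for Cbfb (-1.27 to 0.28). In this contrast 0% of all genes were called by edgeR, 5.52% had an unadjusted p under 0.05 and 0 of the 4 members did. The libraries of all 4 members overlapped, and those of 12.1% of all genes did not. With the Y-linked mean as a covariate the Runx1 value turned to -0.28 and that of Runx2 to -0.25. The Y-linked mean was 36.7 CPM in A021, 42.4 in A042 and 6.54 in A058.

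Averaged over both miR-146a backgrounds, the mutation gave log2 fold changes of 0.44 ± 0.31 for Runx1, 0.89 ± 0.42 for Runx2 (SE, interval -0.0045 to 1.79, edgeR adjusted p = 0.402), 0.07 ± 0.37 for Runx3 and -0.18 ± 0.25 for Cbfb. In this contrast 0.0942% of all genes were called, and 12.6% had an unadjusted p under 0.05, against 0 of the 4 members. The Runx2 value came mostly from the libraries without miR-146a, where miR146aKO_Runx1mut against miR146aKO gave 1.47 ± 0.60 (adjusted p = 0.277, with 0.0157% of all genes called and 14.8% at an unadjusted p under 0.05). It became 0.46 there without A031, and 0.385 for the averaged value. The interaction for Runx2 was 1.16 ± 0.83 (interval -0.62 to 2.95, adjusted p = 0.701, and 0.15 without A031, with 0.0235% of all genes called and 9.46% at an unadjusted p under 0.05).

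Both changes together, against wildtype, gave a Cbfb log2 fold change of -0.86 ± 0.36 (SE, interval -1.63 to -0.08, edgeR adjusted p = 0.49), with 0% of all genes called and 9.42% at an unadjusted p under 0.05. Runx1 was at -0.55 ± 0.44 (-1.49 to 0.39), Runx2 at 0.30 ± 0.59 and Runx3 at 0.20 ± 0.52. Cbfb was the 1 member whose miR146aKO_Runx1mut libraries lay wholly below wildtype, as did 7.17% of all genes. In the same libraries the stem cell and gate markers had a mean log2 CPM of 2.64 (A001), 5.74 (A031) and 2.52 (A051) against 6.70 to 7.53 in wildtype. The monocyte and macrophage markers were at 5.12 to 7.67 against 1.90 to 4.27, and the erythroid markers at -0.02 (A001), 5.73 (A031) and 5.56 (A051) against 0.44 to 1.36. The part of such cells in the Cbfb level was not tested. Without A031, Runx2 went to -0.71 in this contrast, Runx1 to -0.84, Runx3 to 0.31 and Cbfb to -0.89 (edgeR adjusted p = 0.395). The contrasts with wildtype share the same 3 wildtype libraries.

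**Figure D4:**
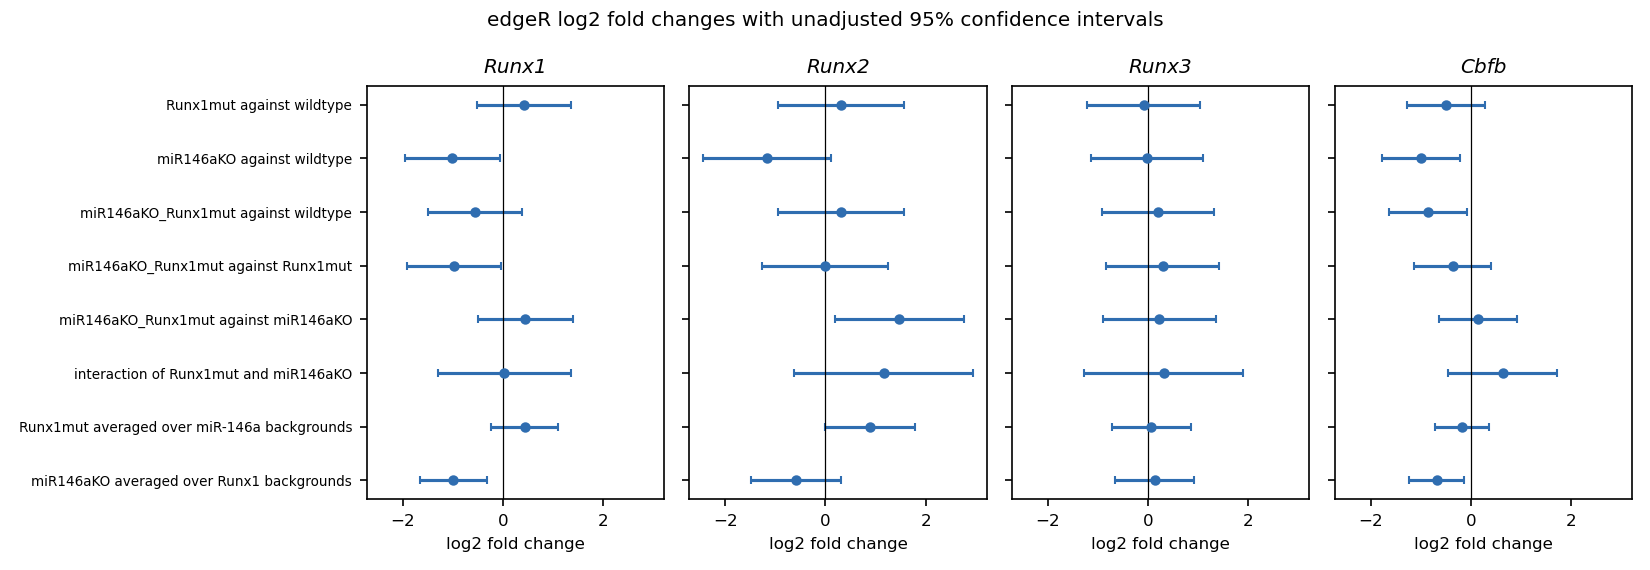
Log2 fold change of each gene (points, x axis) with its unadjusted 95% interval (bars) in the 8 contrasts (rows), from the edgeR fit over 12 libraries. The Runx1 and Cbfb intervals of miR146aKO against wildtype lie below 0, and every Runx3 interval crosses 0.

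The proteins that RUNX factors recruit were next counted, from lists of 14 corepressors and 10 coactivators and modifiers, all of them tested. In the main edgeR fit none of the 24 was called in any of the 8 contrasts. In miR146aKO_Runx1mut against miR146aKO and in the averaged mutation, DESeq2 called the corepressor gene Suv39h1 and the coactivator gene Kat6a, and edgeR without a count filter called Suv39h1. These 2 genes are named after their values were seen. In miR146aKO against wildtype the corepressors had a median log2 fold change of -0.28 with 4 of 14 on the higher side, and the coactivators 0.24 with 6 of 10, beside -0.003 over all genes. Ncor1, a nuclear corepressor of high level, was at 505 ± 126 CPM in wildtype (SD, n = 3) and 530 ± 97.8 in miR146aKO. Sin3a, a scaffold of histone deacetylases, was at 244 ± 61.6 and 127 ± 62.5, and Cbfa2t3, a member of the ETO corepressor family, at 188 ± 88.1 and 159 ± 89.7. The acetyltransferase genes Ep300 and Crebbp were at 404 ± 88.4 and 369 ± 19.8 in wildtype and at 608 ± 111 and 531 ± 110 in miR146aKO. Kmt2a, a histone methyltransferase that binds RUNX1, was at 652 ± 222 in wildtype and 683 ± 54.0 in miR146aKO. In Runx1mut it was at 394 ± 191 and in miR146aKO_Runx1mut at 325 ± 90.7.

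Among 13 transcription factors that act with RUNX1 in blood cells, Ets1 was the 1 called gene, and it rose in miR146aKO. ETS1 pairs with RUNX1 on lymphocyte enhancers. Ets1 was at 30.5 CPM in A015, 11.8 in A040 and 15.5 in A053 of wildtype, while the miR146aKO libraries held 186.5 (A047), 260.6 (A150) and 163 (A151). It was between 5.33 and 22.6 CPM in the 6 libraries with mutant Runx1. The miR146aKO libraries thus stood apart from the other 9, with a log2 fold change against wildtype of 3.40 ± 0.63 (SE, edgeR adjusted p = 0.0493). The call was lost without A015, A040, A053, A150 or A151 (adjusted p = 0.0617, 0.113, 0.174, 0.137 and 0.134) and with a Y-linked covariate (0.332). The log2 fold change was 3.42 with that covariate and 3.10 to 3.89 when 1 library was left out. Of all genes in the 7 lists, edgeR called 1 in this contrast, DESeq2 called 10 and limma-voom 2. EdgeR called 23 without a count filter and 6 on these 6 libraries alone. Over all tested genes the main edgeR fit called 0.18%.

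Against the double genotype, which also lacks miR-146a, Ets1 missed the threshold (log2 fold change of miR146aKO_Runx1mut against miR146aKO of -4.13 ± 0.65, edgeR adjusted p = 0.0505), and the interaction had an adjusted p of 0.264. The first was called with library-size scaling, DESeq2, no count filter, limma-voom, removal of Rn45s, and without A015, A021, A042 or A051, and the interaction was called with DESeq2 and with no count filter. The B lineage markers, 8 of 8 tested, were also at their highest in miR146aKO. Their mean log2 CPM was 4.92 to 8.08 there and -0.47 to 3.48 in the other 9 libraries. Within miR146aKO they did not follow Ets1. A047 was lowest for them (4.92) and A151 highest (8.08), with Ets1 at 186.5 and 163 CPM. The T and NK markers were at a mean log2 CPM of 6.16 in A047, 2.42 in A150 and 1.55 in A151. The part of B lineage cells or T cells in the Ets1 level was not tested. Of the other partner factors, Myb was at 1016 ± 465 CPM in wildtype and 297 ± 213 in miR146aKO (adjusted p = 0.131), Erg at 782 ± 399 and 218 ± 89.8 (0.26) and Elf1 at 231 ± 67.7 and 274 ± 65.7.

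Targets of RUNX factors in 3 blood lineages and in bone were counted in the same way. Of 20 lymphoid targets 12 were tested, and all 12 were on the higher side in miR146aKO against wildtype, with a median log2 fold change of 3.31 and 1 call, Ets1. Over all tested genes the median was -0.003 and 0.18% were called. Cd4, whose silencing and expression RUNX proteins control in T cells, held 225.7 CPM (A047), 297 (A150) and 157.7 (A151), against 0.274 to 2.44 CPM in wildtype (edgeR adjusted p = 0.0714). Cd79a, a chain of the B cell receptor, was at 195 ± 74.3 against 2.41 ± 3.68 CPM (SD, n = 3), and Itgal, the alpha chain of the integrin LFA-1, at 258 ± 140 against 66.8 ± 67.6. Against miR146aKO, the double genotype had 1 of the 12 on the higher side and a median of -3.72, with 0 called. Cd79a and Blk are also among the B lineage markers, and the 6 tested dendritic markers had a mean log2 CPM of 5.29 to 6.33 in miR146aKO and 3.03 to 3.66 in wildtype. The T and NK markers were at 6.16 (A047), 2.42 (A150) and 1.55 (A151), against 1.39 to 1.93 in wildtype. Cd3e was at 643.5, 8.71 and 2.68 CPM in the same miR146aKO libraries. The part of such cells in these values was not tested.

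Blk, a kinase of B cells, was the 1 list member called when loss of miR-146a was averaged over both backgrounds (edgeR adjusted p = 0.0488). The miR146aKO libraries held 3.16 CPM (A047), 100.4 (A150) and 165.5 (A151). The miR146aKO_Runx1mut libraries held 0 (A001), 0.178 (A031) and 18.7 (A051), and Blk was at most 0.285 in the 6 libraries with miR-146a. The call was lost when any of 9 libraries was left out, with an adjusted p of up to 0.395 (without A051). It was also lost with library-size scaling (edgeR adjusted p = 0.0539), limma-voom (0.382) and a Y-linked covariate (0.429). In the main fit of this contrast 2 of the 8 B lineage markers, which include Blk, were called higher. So were 2 of 10 monocyte and macrophage markers and 1 of 8 erythroid markers, and no marker was called lower. Over all tested genes 0.4% were called in this contrast. The part of such cells in the Blk level was not tested.

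Megakaryocyte targets went the other way. Of 12, 10 were tested and 8 were on the lower side in miR146aKO against wildtype, with a median log2 fold change of -2.74, 5 at an unadjusted p under 0.05 and 0 called. Over all tested genes 15.9% had an edgeR unadjusted p under 0.05 in this contrast and 0.18% were called. Itga2b, which encodes the platelet integrin CD41, was at 9.13 ± 6.06 against 72.1 ± 22.5 CPM (SD, n = 3). Pf4, a platelet chemokine, was at 29.6 ± 28.2 against 107 ± 79.4. The 7 megakaryocyte markers, which include Itga2b and Pf4, had a mean log2 CPM of 0.13 to 1.87 in miR146aKO and 1.53 to 5.0 in wildtype, and their part was not tested. In Runx1mut against wildtype the median of the megakaryocyte targets was -0.25 with 4 of 10 on the higher side. Itga2b was among the higher ones, at 517 ± 531 CPM in Runx1mut, with single libraries from 89.4 to 1112. The main fit did not call it. EdgeR without a count filter did, among 162 genes called in that contrast.

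Myeloid targets were on the higher side where Runx1 was mutant. All 10 tested of 12 were so in Runx1mut against wildtype (median log2 fold change 0.75) and in miR146aKO_Runx1mut against wildtype (1.64), with 0 called in each. These contrasts share their wildtype libraries. The most abundant were the granule genes Mpo, Elane and Prtn3, and Mpo was at 15137 ± 13207 CPM in Runx1mut, 27593 ± 19737 in miR146aKO_Runx1mut and 9795 ± 11600 in wildtype (SD, n = 3). Its level in single Runx1mut libraries ran from 1824 to 28240 CPM. The 9 neutrophil markers, which include Mpo and Elane, had a mean log2 CPM of 6.67 to 7.72 in wildtype, 5.50 to 10.1 in Runx1mut and 7.88 to 10.02 in miR146aKO_Runx1mut, and their part was not tested. Il3 and Csf2, cytokine genes that RUNX1 activates in T cells, had 0 counts in all libraries. Of the skeletal targets Spp1, Col1a2 and Alpl were the most abundant, with at most 52.95 CPM in any library.

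**Figure D5:**
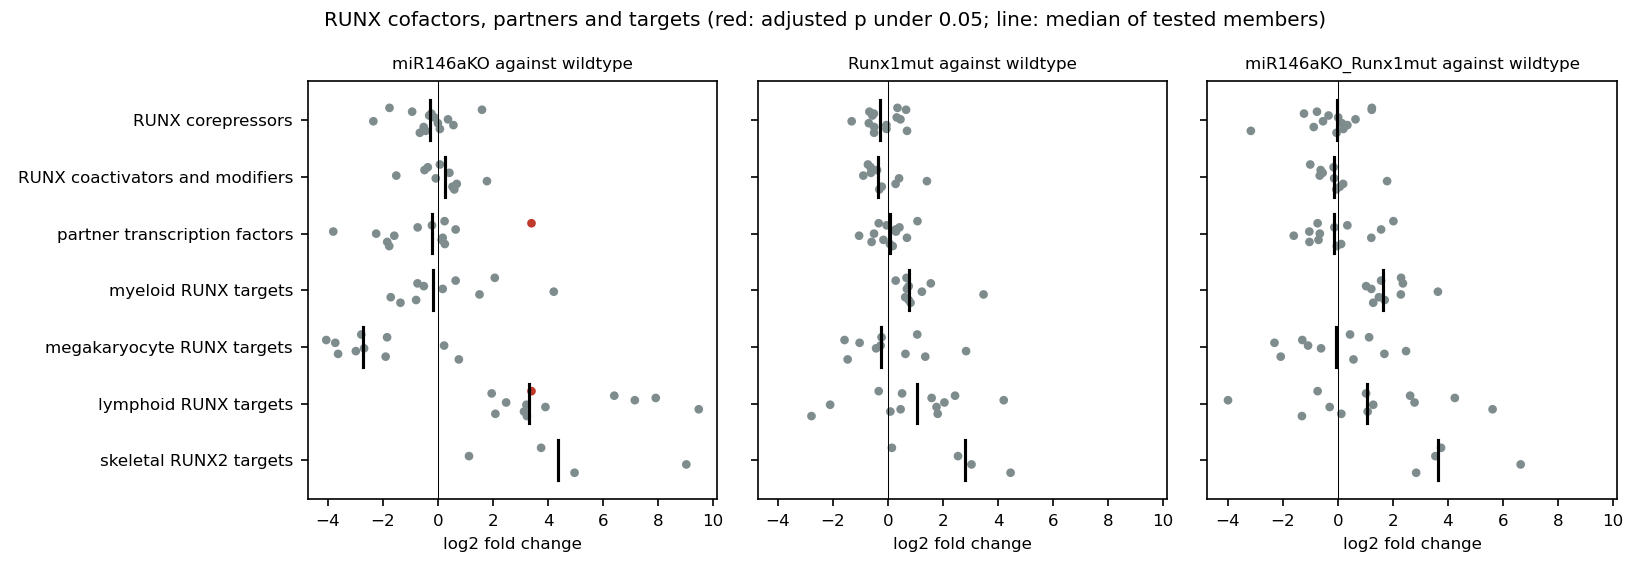
Log2 fold change (x axis) of every tested member of the 7 lists (rows) against wildtype in 3 genotypes, with a black line at the list median and red for an edgeR adjusted p under 0.05. Lymphoid targets lie above 0 and most megakaryocyte targets below 0 in miR146aKO, and Ets1, a member of 2 lists, is the only red gene.

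The members were also compared with each other over the 12 libraries, in log2 CPM. Runx1 and Runx2 had the highest correlation of the 6 pairs (Pearson r = 0.63, Spearman rho = 0.68, permutation p = 0.0285 and 0.0189, adjusted over 6 pairs 0.171 and 0.113). Without A042 and A151, the libraries with Runx1 farthest from its median, r was 0.51, and with group means removed 0.42. Runx1 and Cbfb had r = 0.48 and rho = 0.52 (permutation p = 0.113 and 0.0861), 0.58 without those libraries and 0.00 with group means removed. The other 4 pairs had r between -0.09 and 0.38. No pair passed the adjustment.

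The genes most like each member were taken by Pearson r of log2 CPM over the 12 libraries, among 6924 genes with a mean log2 CPM of at least 4, predicted gene models left out. For Runx1 they were Nrf1 (r = 0.88, rho = 0.92), Rps14 (0.87, 0.91), Zfp410 (0.85, 0.93), Ept1 (0.85, 0.76) and Heatr5a (0.84, 0.86). For Runx2 the 5 included 3 ribosomal protein genes, Rpl31 (r = 0.88, rho = 0.94), Rps4x (0.86, 0.73) and Rps19 (0.85, 0.85), beside Vta1 and Deptor. For Runx3 they were led by Ube2k (0.87, 0.76) and Raver1 (0.85, 0.84), and for Cbfb by Scnm1 (0.93, 0.94) and Ice2 (0.90, 0.84). The highest of 6924 values is large by selection, and none of the members was among the 5 of another.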

How the data were processed

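RNA-seq counts were analysed for 12 libraries, 3 in each of 4 genotypes. The deposited table holds raw read counts per gene symbol, 24421 symbols in all. The tools listed in the submitters' processing notes are HISAT2 2.0.4, featureCounts 1.5.2 and FastQC 0.11.2, with build mm10. Which annotation release and strand setting the counting used was not stated. Per the labels' protocols, RNA was amplified with the NuGEN Ovation v2 system and libraries were made with Nextera XT, which keeps no strand. A deposited table names the genotype of each library without a replicate number, so libraries go by the identifier heading their column.

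Counts were tested with edgeR 4.0.16 (R 4.3.3): TMM scaling, default low-count filter (12744 genes kept, common coefficient of variation 0.809), 1 quasi-likelihood fit over all 12 libraries, 8 contrasts and Benjamini-Hochberg adjustment over all 12744 genes, with a threshold of 0.05. Levels are CPM with TMM factors. Log2 CPM has a prior count of 2. Per-length levels divide CPM by the union of exons in GENCODE M21 (GRCm38, the same assembly as mm10). Alternatives were DESeq2 1.42.0, limma-voom (limma 3.58.1), scaling by library size alone, no count filter, removal of the ribosomal RNA gene Rn45s, a Y-linked covariate, only the groups compared, and leaving out each library.

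The members and gene lists were chosen with earlier results of these data known. Named genes were the 4 members, any called member of the 7 lists of RUNX cofactors, partners and targets, and the 3 further members of each list with the highest mean CPM, 1 of which is not reported here. Cd3e, Cxcl12, Sp7, Kit and Ly6a are named as markers.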

Additional observations from a re-analysis of the deposited data

How the results depend on the processing

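No member of the Runx family was called under any setting: 0 of 596 values, smallest adjusted p 0.0671 for Runx1 in loss of miR-146a averaged over both backgrounds with no count filter. Of the 596 values, 554 kept their sign. For Runx1, loss of miR-146a gave -1.90 to -0.81 alone and -1.42 to -0.72 averaged, and for Cbfb -1.38 to -0.81 and -0.85 to -0.59. No paired analysis was possible because the columns carry no replicate number. Each member had at least 166 counts in every library.

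A Y-linked covariate reversed Runx1 (-0.28) and Runx2 (-0.25) in Runx1mut against wildtype. It also reversed Runx2 (-0.29) and Runx3 (-0.40) in miR146aKO_Runx1mut against wildtype, and Runx3 in both averaged contrasts (-0.13 for the mutation, -0.27 for miR-146a). Scaling by library size alone reversed Runx3 in miR146aKO_Runx1mut against wildtype (-0.021) and in averaged loss of miR-146a (-0.039). DESeq2 reversed Runx3 in miR146aKO against wildtype (0.030), Runx2 in miR146aKO_Runx1mut against Runx1mut (0.0028) and the Runx1 interaction (-0.014). The cause was not tested.

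Leaving out 1 library, log2 fold changes that changed sign ran as follows. In Runx1mut against wildtype, Runx1 from -0.12 to 0.72 and Runx3 from -0.40 to 0.10. In miR146aKO against wildtype, Runx3 from -0.88 to 0.34. In miR146aKO_Runx1mut against wildtype, Runx2 from -0.71 to 0.66 and Runx3 from -0.081 to 0.32. Against Runx1mut, Runx2 ran from -1.02 to 0.35, and against miR146aKO Runx3 ran from -0.15 to 1.08 and Cbfb from -0.044 to 0.42. In the interaction, Runx1 ran from -0.28 to 0.58 and Runx3 from -0.058 to 1.17. Runx3 ran from -0.12 to 0.50 for the averaged mutation and from -0.30 to 0.31 for averaged loss of miR-146a.

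Counts of called genes depended on the setting. In the order Runx1mut, miR146aKO and miR146aKO_Runx1mut against wildtype, miR146aKO_Runx1mut against Runx1mut and against miR146aKO, interaction, averaged mutation and averaged loss of miR-146a, edgeR called 0, 23, 0, 0, 2, 3, 12 and 51 genes. DESeq2 called 115, 839, 192, 78, 653, 166, 401 and 504. With no count filter edgeR called 162, 796, 256, 144, 549, 268, 460 and 624. With limma-voom the second was 76, the fifth 12, the sixth 0 and the eighth 2. With a Y-linked covariate the second was 9, the seventh 0 and the eighth 2. Library-size scaling gave 41 for the second, removal of Rn45s 11 for the fifth, and only the groups compared 158 for the second and 4 for the fifth. Leaving out 1 library gave 0 to 2 for the first, 2 to 135 for the second, 0 to 7 for the fifth, 1 to 6 for the sixth, 0 to 24 for the seventh and 0 to 193 for the eighth.

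Per-length values moved with the length used. In wildtype, with the longest transcript, Runx1 was at 47.6 RPKM. With the longest coding length Runx1 was at 199.97, Runx2 at 108.3, Runx3 at 136.4 and Cbfb at 329.2. The Runx1 share became 39.5%, 43.0% and 26.6% in wildtype, Runx1mut and miR146aKO_Runx1mut with the longest transcript, and 45.4%, 48.7% and 31.8%, and 39.5% in miR146aKO, with the coding length.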
